A study of Mus musculus with 7 samples.

Results

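Kit+Xcl1+ IEL, the small intestinal intraepithelial lymphocytes (IEL) with at least 1 unique molecular identifier (UMI, a counted transcript) each of *Kit* and *Xcl1* in the deposited counts, numbered 454 of 10159 IEL and of 21365 cells in all. They were 162 of 4348 young IEL and 292 of 5811 old IEL. The study profiled T cells of the small intestine and spleen (SP) of male C57BL/6 mice of 6 and 80 weeks by single-cell RNA and T cell receptor (TCR) sequencing, and the labels name no genetic change or treatment. The labels give 3 mice for each age, pooled before sequencing, whereas a legend of the study gives 6 young mice. The cells were enriched with CD45 beads, marked with 1 hashtag antibody for each pool and sorted for CD3. For IEL, the CD3+ sort was combined in equal parts with a CD3+CD4+ sort, so that the shares of TRB-bearing and *Cd4*-positive cells depend on the sort as well as on the tissue.

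Kit is the receptor tyrosine kinase for stem cell factor and is known from blood progenitors and mast cells. Xcl1 is a chemokine of T and NK cells whose receptor, Xcr1, marks cross-presenting dendritic cells. Natural IEL are γδ T cells and αβ T cells without CD4 or CD8β that enter the epithelium directly from the thymus, carry CD8αα and NK-type receptors and hold granzymes ready for release. Tcf7 encodes TCF1, a transcription factor of naive, memory and stem-like T cells, and Cd160 is an NK-type receptor of IEL for herpesvirus entry mediator.

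*Kit* (ENSMUSG00000005672) lies on chromosome 5 from 75574916 to 75656722, *Xcl1* (ENSMUSG00000026573) on chromosome 1 from 164931644 to 164935527, *Tcf7* (ENSMUSG00000000782) on chromosome 11 from 52252371 to 52283014 and *Cd160* (ENSMUSG00000038304) on chromosome 3 from 96798763 to 96829351 of GRCm38, the assembly called mm10. Each age is 1 pool of cells, so no test between groups was made. Intervals are given at 95% and cover counting error alone, exact binomial (Clopper-Pearson) for shares and exact Poisson for levels. A level is the sum of a gene's UMIs per 10000 UMIs of the cells.

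The TCR sequences show how the TRB-bearing Kit+Xcl1+ IEL were related. A clonotype is the set of productive TRB chains of a cell, defined by V gene, J gene and the nucleotides of the third complementarity-determining region (CDR3), the part that is made new at each rearrangement. The 3 old clonotypes shown here are the first pair, which carry the comparison of cells sharing a TCR, and, for contrast, a clonotype of 33 cells that had no *Cd4* UMI. Bases in lower case match the germline V gene from the start or the germline J gene to the end, and capitals mark the bases between that match neither.
TRBV13-1 and TRBJ2-3: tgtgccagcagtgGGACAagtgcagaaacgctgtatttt
TRBV2 and TRBJ2-3: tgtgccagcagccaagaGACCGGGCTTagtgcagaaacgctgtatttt
TRBV16 and TRBJ1-3: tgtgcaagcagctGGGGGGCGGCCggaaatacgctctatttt
The first held 745 old IEL, of which 31 were Kit+Xcl1+, or 4.16% (2.84 to 5.85). The second held 80 cells with 8 Kit+Xcl1+, or 10.0% (4.42 to 18.8). The third held 2 Kit+Xcl1+ cells. The intervals of the first 2 clonotypes overlapped, and *Kit* UMIs were found in 157 of 745 and 27 of 80 of their cells.

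Kit+Xcl1+ cells made up 3.73% of young IEL (3.18 to 4.33) and 5.02% of old IEL (4.48 to 5.62), an old share 1.35 times the young one. This order depended on cells with few UMIs. With at least 2 UMIs of each gene, 98 young and 126 old cells remained, or 2.25% and 2.17%, a ratio of 0.962. After every cell had been thinned to 2000 UMIs, which left out 0 young and 130 old IEL, the shares were 1.22% (0.914 to 1.59) and 1.76% (1.43 to 2.14). The higher old share therefore held in the deposited and the thinned counts and not for cells with 2 UMIs of each gene.

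**Figure D1:**
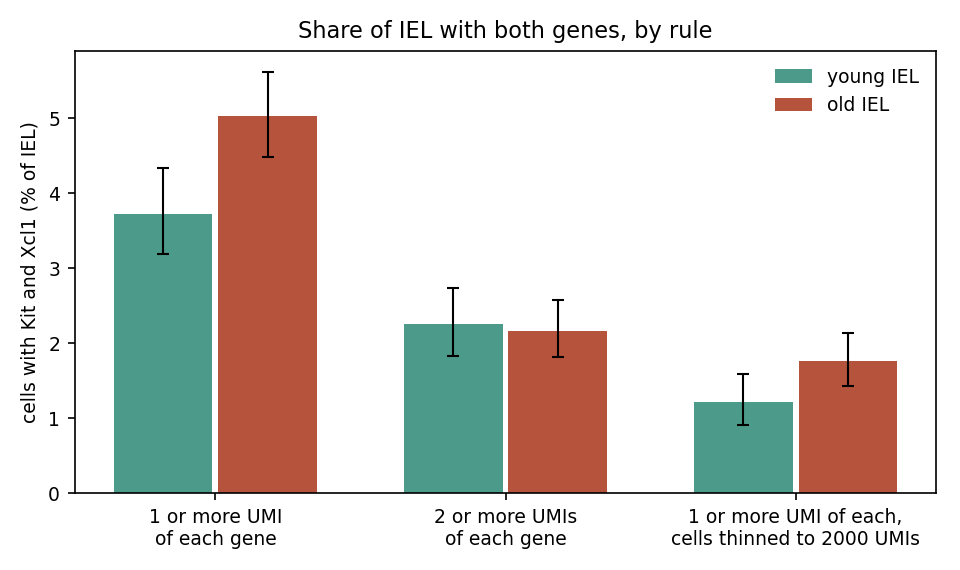
Share of young IEL and old IEL with both genes, in percent of cells (vertical axis, from 0), under 3 rules: at least 1 UMI of each gene, at least 2 UMIs of each gene, and 1 UMI of each after thinning to 2000 UMIs. Bars are shares and lines exact 95% binomial intervals; old stands above young at 5.02% against 3.73% and at 1.76% against 1.22%, and the shares are 2.17% and 2.25% with 2 UMIs.

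In SP, 4 of 5668 young cells had both genes, or 0.0706% (0.0192 to 0.181), and 0 of 5538 old cells (0 to 0.0666%). After thinning, 0 of 5639 young and 0 of 5501 old SP cells had both. Naive-like SP cells, defined by UMIs of *Ccr7* and *Lef1* and no UMI of *Cd44*, were taken as a background set for both genes. After thinning, 25.6% of them had a *Ccl5* UMI, 14.1% an *Il2rb* UMI and 9.86% a *Gzma* UMI, so the set was not free of effector genes. After thinning, 1 of 5294 of them had a *Kit* UMI, whereas 2.27% (1.88 to 2.70) had an *Xcl1* UMI, at a median depth of 5939 UMIs before thinning. Unthinned, *Xcl1* was found in 76 of 3341 young and 265 of 1959 old naive-like cells. *Xcl1* UMIs were thus found in naive-like cells, more often in the old than in the young SP pool, and *Kit* UMIs hardly at all. Whether these *Xcl1* UMIs were free RNA or made by the cells was not tested. The part of free RNA in the IEL shares was not tested.

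Both genes met in the same cells beyond the product of their shares. *Kit* was found in 656 young IEL (15.1%) and *Xcl1* in 583 (13.4%), which would give 88.0 cells with both if the genes were independent, against 162 counted. In old IEL, *Kit* was found in 952 cells (16.4%) and *Xcl1* in 1088 (18.7%), for 178 cells under independence and 292 counted. Deep cells show both genes more often, and the thinned counts gave 53 against 20.9 in young and 100 against 50.7 in old IEL. These values describe the rule itself.

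Kit+Xcl1+ IEL differed far more in *Xcl1* than in *Kit*. The median was 8 *Xcl1* UMIs in a cell at both ages, with a maximum of 451 in young and 356 in old cells, and a level of 18.2 and 22.7. *Kit* had a median of 2 UMIs in young and 1 in old cells and a maximum of 12 and 8, with levels of 2.53 and 2.76. At the edge of the rule stood 60 young cells (37.0%) and 150 old cells (51.4%) with 1 *Kit* UMI, and 19 (11.7%) and 47 (16.1%) with 1 *Xcl1* UMI. Just outside were 494 young and 660 old IEL with *Kit* and no *Xcl1*, and 421 young and 796 old IEL with *Xcl1* and no *Kit*.

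The comparison cells were the Fcer1g+ IEL without *Kit* and *Xcl1* UMIs, 1659 young and 1956 old cells. Kit+Xcl1+ cells were not chosen for *Fcer1g*: a UMI of it was found in 85.8% of young and 94.2% of old cells, and in 55 of 71 young and 103 of 116 old cells with TRB and without *Trdc*. *Fcer1g* (ENSMUSG00000058715, chromosome 1 from 171229572 to 171234365) encodes the Fc receptor γ chain, an adaptor that signals for NK-type receptors and for the TCR of IEL. Kit+Xcl1+ cells were deeper, with a median of 8536.5 UMIs in young and 6567.5 in old cells against 6737 and 5667.5 in the comparison cells. Levels are scaled to depth, and at 2000 UMIs the median number of genes was 1144 and 1160 against 1111 and 1139. Ribosomal protein genes took 17.6% and 15.5% of the UMIs of Kit+Xcl1+ cells against 13.1% and 12.4%.

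The marker genes of the population that the rule did not use are given first. *Tcf7* stood at 2.87 UMIs per 10000 (2.62 to 3.14) in young Kit+Xcl1+ IEL against 0.17 (0.15 to 0.19) in young comparison cells, and at 2.21 (2.01 to 2.42) against 0.09 (0.07 to 0.10) in old cells. Its log2 ratio was 3.47 in young and 3.63 in old cells, the first in rank over both ages. After thinning, 75 of 162 young cells had a *Tcf7* UMI, or 46.3%, and 101 of 291 old cells, or 34.7%, whereas the comparison cells had 2.35% and 1.14%. *Cd160* stood at 11.3 against 4.26 in young and 10.3 against 4.80 in old cells, a log2 ratio of 1.38 and 1.08. Both marker genes that the rule did not use were thus higher in Kit+Xcl1+ cells at both ages. The markers were chosen with earlier results of these data known, so these values describe that choice and are not separate support.

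Genes were compared where the mean of the levels was at least 0.5 per 10000, with 0.1 added to both levels, and a gene counts as higher or lower from 2-fold. The genes of the rules were left out. A gene below the minimum in 1 set could pass through the other set alone, so genes of low level enter the counts more readily where they are high. In young cells, 33 of 3449 genes (0.957%) were higher in Kit+Xcl1+ IEL and 25 (0.725%) lower. In old cells, 10 of 3544 genes (0.282%) were higher and 9 (0.254%) lower. These shares over all genes, and those given for each later comparison, are the background for the counts by list. With the 3 largest clonotypes left out of the comparison cells, 11 genes were higher and 5 lower in old cells. With Kit+Xcl1+ cells that had an *Fcer1g* UMI alone, 139 young and 275 old cells, 23 genes were higher and 29 lower in young and 9 and 10 in old cells, and 37 of the 58 young and 16 of the 19 old genes were the same. Of the genes recomputed singly, *Rora*, *Fosb*, *Cd6*, *Stmn1* and *Pclaf* in young and *Crtam* and *Myc* in old cells were then within 2-fold, and *Il17a* was lower in old cells. The median log2 ratio of all genes was 0.06 in young and 0.03 in old cells. The deeper sum of 12001434 and 11480992 UMIs in the comparison cells, against 1667517 and 2118962 in Kit+Xcl1+ cells, makes the latter the less precise side of each ratio.

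*Gzma*, *Gzmb* and *Gzmk* were lower, and most other cytotoxic genes tested kept within 2-fold. Of 12 tested genes of the cytotoxic list in young cells, 4 were at least 2-fold lower and 0 higher, with a median log2 ratio of -0.53. In old cells, 3 of 13 were lower and 0 higher, with a median of -0.35. *Gzma*, a granzyme, stood at 91.2 in young Kit+Xcl1+ IEL against 430 in comparison cells and at 149 against 430 in old cells, log2 ratios of -2.24 and -1.53. *Gzmb*, the granzyme that triggers apoptosis, stood at 18.7 against 109 and at 27.5 against 82.6. *Gzmk* was lower as well, with log2 ratios of -1.89 and -1.46, and *Fasl* passed 2-fold in young cells at 0.65 against 1.66 and had 1.54 against 2.68 in old cells. *Nkg7*, a granule membrane protein, and *Ctsw*, a cathepsin, kept within 2-fold: *Nkg7* stood at 19.8 against 29.9 in young cells and *Ctsw* at 11.4 against 10.2.

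**Figure D2:**
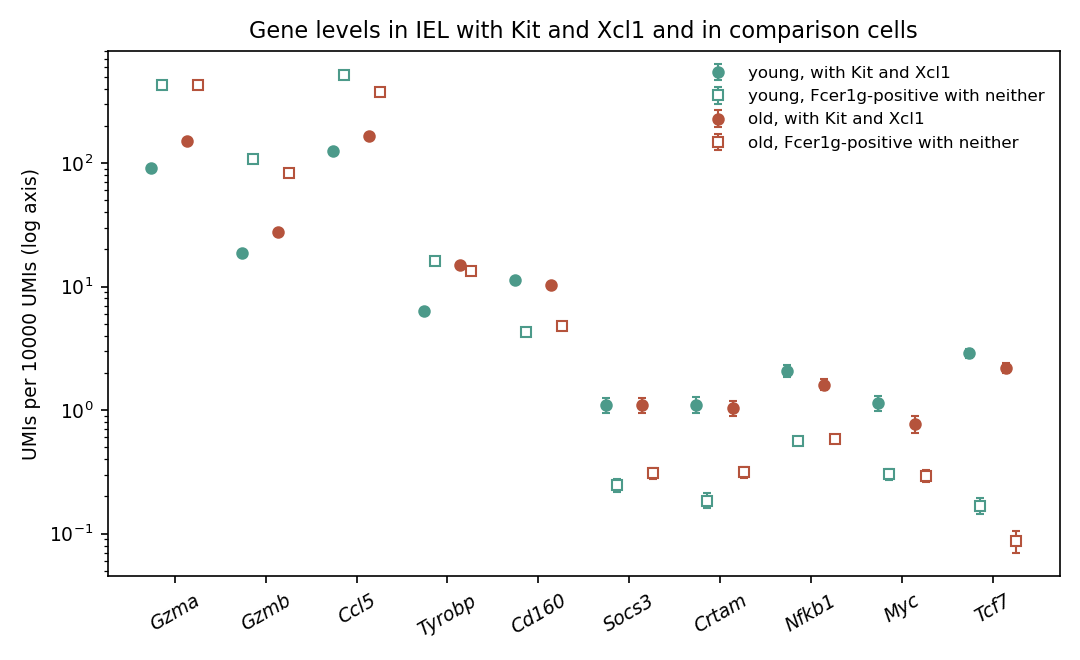
Levels of 10 genes in UMIs per 10000 UMIs (vertical axis, logarithmic) in Kit+Xcl1+ IEL and in Fcer1g+ comparison cells of both ages. Points are levels of each pool and lines exact 95% Poisson intervals, many smaller than the point; *Tcf7* and *Cd160* stand higher and *Gzma* and *Gzmb* lower in Kit+Xcl1+ cells of both ages.

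Inflammatory chemokines followed the granzymes. *Ccl5*, a chemokine of cytotoxic T cells, stood at 126 against 518 in young and 165 against 372 in old cells, log2 ratios of -2.04 and -1.17. *Ccl4* had 2.28 against 13.0 and 7.31 against 15.0, and *Ccl3* had log2 ratios of -1.52 and -1.04. These were the 3 genes at least 2-fold lower among 6 tested of the chemokine and cytokine list in young cells and among 8 in old cells. *Ltb*, the lymphotoxin β chain, was higher in young cells at 2.61 against 0.67, while in old cells it stood at 2.17 against 1.24. *Il17a* counted as higher in old cells only because of 1 cell, which held 157 of its 158 UMIs.

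NK-type receptors were counted by list. Among activating receptors, 2 of 5 tested were higher in young and 3 of 6 in old cells, with medians of 0.72 and 0.84. Besides *Cd160* these were *Crtam*, a receptor for the adhesion molecule Cadm1, at 1.10 against 0.18 and 1.03 against 0.31, and in old cells *Klrk1*, which encodes NKG2D, at 0.86 against 0.17. *Crtam* and *Klrk1* reached the minimum mean level only through the Kit+Xcl1+ cells. The counts and medians of this short list therefore lean towards higher genes. In the list of inhibitory receptors, 0 of 11 were higher at either age, with medians of -0.30 and -0.16. Its entry *Cd200r2* was lower in young cells at 0.86 against 2.70. Whether each entry inhibits in these cells was not tested. *Klrd1*, which encodes CD94, stood at 4.94 against 9.49 in young and 7.08 against 10.8 in old cells, within 2-fold.

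Most transcription factor genes tested kept within 2-fold, as did most of all genes tested. In young cells, 3 of 18 tested were at least 2-fold higher and 0 lower, and in old cells 1 of 18, with medians of 0.27 and 0.13. Of all genes tested, 0.957% were higher in young and 0.282% in old cells. *Bach2*, a repressor of effector differentiation, was higher in young cells at 0.80 against 0.20 and stood at 0.77 against 0.17 in old cells, where it missed the minimum mean level. *Rora* was higher in young cells at 1.22 against 0.46. *Id3*, a partner of the E proteins, stood at 0.49 against 0.02 and 0.22 against 0.02, and *Prdm1*, which encodes Blimp1, at 0.14 against 0.65 and 0.20 against 0.60, all below the minimum level for the count. *Tbx21* (T-bet), *Runx3* and *Ikzf2* (Helios) kept within a log2 ratio of 0.28 at both ages.

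The genes ranked highest and lowest over both ages included members of other groups. *Socs3*, an inhibitor of cytokine signalling, had log2 ratios of 1.79 and 1.55, *Nfkb1*, a subunit of NF-κB, 1.71 and 1.32, and *Myc*, a regulator of growth, 1.61 and 1.14. *Dennd2d* had 1.85 and 1.12, the calpain gene *Capn3* 1.82 and 0.99, the actin-capping gene *Capg* 1.37 and 0.96, and *Fosb*, an AP-1 subunit, 1.07 and 0.97. On the low side *Acoxl* had -1.80 and -0.94, *Glrx*, a glutaredoxin, -1.64 and -0.79, *Adrb1*, the β1 adrenergic receptor, -1.53 and -0.86, and the prostaglandin E2 receptor gene *Ptger4* -1.13 and -0.79. Of these 11 genes, only *Socs3*, *Nfkb1*, *Myc* and *Dennd2d* passed 2-fold at both ages.

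Genes that act downstream of Kit stood near the level of the comparison cells. Of 16 tested in young cells, 1 was higher and 0 lower, and of 18 in old cells 0 either way, with medians of -0.02 and 0.04. Of all genes tested, 0.957% were higher and 0.725% lower in young cells, and 0.282% and 0.254% in old cells. So few calls therefore do not set this list apart from other genes. The gene called in young cells was *Socs1*, a brake on JAK signalling, at 0.73 against 0.31. *Stat5b*, a factor activated by cytokine receptors and by Kit, stood at 1.51 against 0.96 and 1.47 against 1.03. The kinase genes *Lyn* and *Fyn* and *Pik3r1*, a PI3 kinase subunit, had log2 ratios of at most 0.28 in size.

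*Tyrobp*, which encodes the adaptor DAP12, was lower in young Kit+Xcl1+ IEL and within 2-fold in old ones. In young Kit+Xcl1+ IEL it stood at 6.30 (5.93 to 6.70) against 16.0 (15.8 to 16.2) in comparison cells, a log2 ratio of -1.33. In old cells it stood at 15.0 (14.5 to 15.6) against 13.4 (13.2 to 13.6), a log2 ratio of 0.17.

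Kit+Xcl1+ IEL were a mixture in respect of granzymes. A *Gzma* UMI was missing in 75 of 162 young cells (46.3%) and in 118 of 292 old cells (40.4%), against 15 of 1659 and 7 of 1956 comparison cells. The median level over single cells was 1.13 in young and 2.44 in old cells, far below the summed level, and the upper quartile was 32.6 and 301. Among naive-like SP cells, 9.86% had a *Gzma* UMI after thinning, against 38.3% and 52.6% of Kit+Xcl1+ IEL. The summed *Gzma* level thus rested on part of the Kit+Xcl1+ cells, while 46.3% of young and 40.4% of old cells had no UMI of it. Cells with levels in between were also present.

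*Gzma* was higher in the cells with few UMIs of the rule's genes. Young cells with 1 *Xcl1* UMI had a *Gzma* level of 248, those with 2 to 9 had 89.9 and those with 10 or more had 55.2. In old cells the levels were 299, 190 and 71.2. Cells with 1 *Kit* UMI had 137 in young and 191 in old cells, against 64.1 and 110 in those with 2 or more. By *Xcl1* UMIs, *Tcf7* was lowest in the cells with 1, with 1.37, 3.28 and 2.95 in young and 1.05, 1.97 and 2.76 in old cells, and so was *Cd160*, with 6.29, 11.5 and 12.2 in young and 4.82, 9.24 and 12.8 in old cells. Old cells with 1 *Xcl1* UMI thus lay nearest to the old comparison cells, whose levels were 430 for *Gzma*, 0.09 for *Tcf7* and 4.80 for *Cd160*. These groups were cut by the UMIs that the rule itself used and were not matched for depth, so the levels are descriptions.

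**Figure D3:**
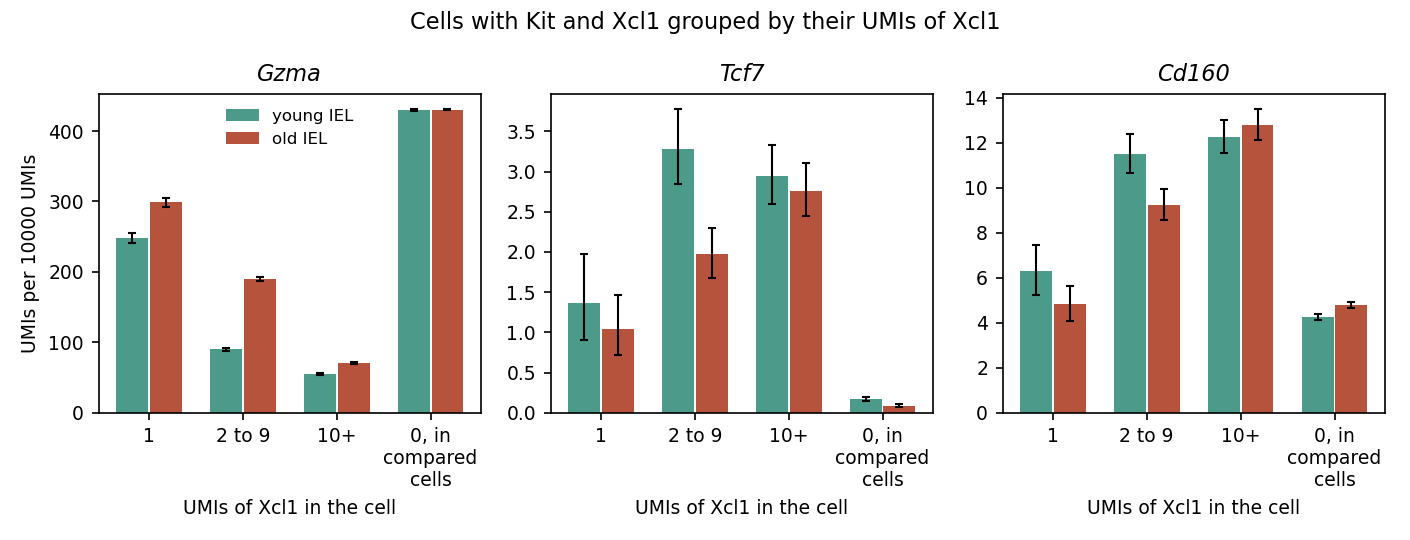
Levels of *Gzma*, *Tcf7* and *Cd160* in UMIs per 10000 UMIs (vertical axes, from 0) in Kit+Xcl1+ IEL with 1, 2 to 9 and 10 or more *Xcl1* UMIs and in comparison cells, by age. Bars are summed levels and lines exact 95% Poisson intervals; *Gzma* is lowest with 10 or more *Xcl1* UMIs, at 55.2 in young and 71.2 in old cells.

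Cells with and without *Tcf7* UMIs differed in *Gzma*. The 132 young cells with a *Tcf7* UMI had a *Gzma* level of 40.4 and the 30 without had 266. Among old cells, 167 with *Tcf7* had 47.7 and 125 without had 291. Over cells, Spearman's rho between the levels of *Tcf7* and *Gzma* was -0.43 in 162 young and -0.65 in 292 old cells, and that between *Xcl1* and *Gzma* was -0.41 and -0.55. These cells share a pool and a library and differ in depth, so the coefficients are descriptions.

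Outside the rule, each gene alone gave a different picture. IEL with *Kit* and no *Xcl1* had a *Gzma* level of 392 in young and 424 in old cells and a *Tcf7* level of 0.42 and 0.08, nearer to the comparison cells than to Kit+Xcl1+ IEL. IEL with *Xcl1* and no *Kit* had *Gzma* levels of 127 and 203 and *Tcf7* levels of 1.60 and 1.13, between both sets. Where such cells had 10 or more *Xcl1* UMIs, *Cd160* stood at 12.2 and 10.6, near the levels in Kit+Xcl1+ IEL.

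Old and young Kit+Xcl1+ IEL were compared next. Of 3520 genes, 29 (0.824%) were at least 2-fold higher in old cells and 17 (0.483%) lower, with a median log2 ratio of -0.00. Without the cycling cells 24 were higher and 7 lower, in *Trdc*-positive cells alone 34 and 4, and in TRB-bearing cells alone 40 and 35. With the mean of the levels of single cells in place of the summed level, 26 genes were higher and 7 lower, which raised the part of higher genes from 63.0% to 78.8%. Among the comparison cells 17 of 3449 genes (0.493%) were higher and 11 (0.319%) lower with age. *Tcf7* and *Cd160* had log2 ratios of -0.36 and -0.13 between old and young cells.

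*Bcl2l15*, a member of the BCL2 family, had the highest ratio, at 1.39 in old (1.23 to 1.56) and 0.08 in young cells (0.05 to 0.14). It was found in 148 of 292 old and 11 of 162 young cells. Its log2 ratio was 3.02, and 2.35 in the comparison cells, so the rise with age was shared by IEL outside the population. *Jun*, the AP-1 subunit, rose from 3.59 to 8.54, a log2 ratio of 1.23 against 0.99 in the comparison cells.

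Other genes rose in Kit+Xcl1+ IEL and stayed within 2-fold in the comparison cells. *Tyrobp* had a log2 ratio of 1.24 against -0.26, and of 0.82 in TRB-bearing cells alone, *Cd200r2* 1.58 against 0.61, *Glp1r*, the receptor for the incretin GLP-1, 1.54 against 0.53, *Frmd5* 1.45 against 0.28, *Camk2n1*, an inhibitor of calmodulin kinase II, 1.40 against 0.79, and *Tent5a* 1.24 against 0.44. *Cd74*, the invariant chain of MHC class II, had 1.94 against 0.37 and was found in 65 of 292 old and 13 of 162 young cells. In the young and old comparison cells *Cd200r2* already stood at 2.70 and 4.17, above the 0.86 and 2.78 of Kit+Xcl1+ cells. Whether the ratios of both sets differ could not be tested with 1 pool for each age.

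*Ccl4* rose from 2.28 to 7.31 over all cells. In TRB-bearing cells without *Trdc* its level was 1.88 in young and 7.77 in old cells, a log2 ratio of 1.99, whereas in *Trdc*-positive cells without TRB it was 2.94 and 3.08, a log2 ratio of 0.06. In the young *Trdc*-positive cells, 1 cell held 46.4% of its UMIs, and without that cell their level was 1.61 and the log2 ratio of old to young 0.89, so that the low ratio in this class depended on 1 cell.

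By list, the cytotoxic genes had a median log2 ratio of 0.41 between old and young Kit+Xcl1+ IEL, with 1 of 11 at least 2-fold higher, 0 lower and 11 above 0, and in the comparison cells 0.14, with 11 of 13 above 0. The gene called was *Fasl*, the death ligand, at 0.65 in young and 1.54 in old cells. *Gzma* stood at 91.2 and 149 and *Gzmb* at 18.7 and 27.5, within 2-fold. The list of inhibitory receptors had a median of 0.51, against 0.42 in the comparison cells. Of its 11 tested genes, 2 were higher (*Cd200r2* and *Klre1*, an NK receptor chain) and 1 lower (*Klra7*, a Ly49 receptor). Whether these receptors inhibit in these cells was not tested. The checkpoint receptors *Lag3* and *Tigit* stood at 2.63 and 4.55 and at 1.96 and 3.70, within 2-fold.

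Other lists held few or no called genes. *Klrk1* was higher in old cells, at 0.34 and 0.86, the 1 gene called of 6 activating receptors. *Ifng*, the type 1 effector cytokine, was higher at 0.31 and 0.81, so that with *Ccl4* 2 of 7 chemokines and cytokines were called. *Klrk1* and *Ifng* reached the minimum mean level only through the old cells. Immediate early and heat shock genes had a median of 0.31, with 10 of 12 above 0 and *Jun* called, and in the comparison cells a median of 0.35, with 11 of 11 above 0. In the Kit signalling list 0 of 19 genes were called in either direction, with a median of -0.01, and in the transcription factor list 0 of 19, with a median of 0.10. Of all 3520 genes tested, 0.824% were higher and 0.483% lower, so counts of 0 do not set these lists apart.

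Among the genes lower in old cells, *Ifi27l2a*, an interferon-induced gene, fell from 1.92 to 0.29, a log2 ratio of -2.36 against -2.05 in the comparison cells. It was the 1 gene called of 6 in the interferon response list, whose median was 0.03. *Klra7* fell from 1.23 to 0.25, log2 -1.92 against -1.74. *Nfkbia*, the inhibitor of NF-κB, fell from 4.02 to 1.70, a log2 ratio of -1.20 against -0.46. *Lgals1*, a galectin, fell from 2.52 to 0.54 over all cells, while in *Trdc*-positive cells it stood at 0.25 in young and 0.43 in old cells, where 1 cell held 84.4% of the old UMIs.

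Several cell cycle genes were lower in old cells, and most UMIs of the cell cycle list in young cells lay in a few cells. *Stmn1*, *Pclaf* and *Hist1h1b* had log2 ratios of -1.82, -1.53 and -1.94, and *Mcm5*, *Mcm3* and *Tfdp1*, of replication and its control, -1.31, -1.29 and -1.31. By the 12-gene cell cycle list, 11 of 162 young cells (6.79%, 3.44 to 11.8) and 3 of 292 old cells (1.03%, 0.212 to 2.97) had at least 10 cell cycle UMIs per 10000, against 1.87% and 0.358% of the comparison cells. The 10 highest young cells held 85.8% of the UMIs of the list. Of the 11 young cells, 9 were TRB-bearing without *Trdc* and 0 were *Trdc*-positive without TRB. In old cells 1 cell held 74.1% of the *Hist1h1b* UMIs. Without the cells at or above this limit the list summed to 0.930 in young and 0.423 in old cells, against 6.17 and 1.59 with them. The young level thus stayed the higher. *Mcm5*, *Mcm3* and *Tfdp1* were not part of this list. Under the thinned rule the ratios of *Hist1h1b*, *Pclaf* and *Stmn1* turned to 2.17, 1.87 and 0.18, and with 2 UMIs of both genes that of *Hist1h1b* turned to 0.47.

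By receptor, 56 young Kit+Xcl1+ IEL (34.6%, 27.3 to 42.4) had a *Trdc* UMI and no TRB chain, 71 (43.8%) a TRB chain and no *Trdc* UMI, 16 (9.88%) both and 19 (11.7%) neither. In old cells these were 102 (34.9%), 116 (39.7%), 20 (6.85%) and 54 (18.5%). *Trdc* (ENSMUSG00000104876, chromosome 14 from 54142851 to 54148868) encodes the constant region of the TCR δ chain. Among naive-like SP cells with a TRB chain, 43 of 4856 had a *Trdc* UMI, or 0.886%, which is the background of the *Trdc* call in SP. In old IEL, 17 of the 745 cells of the clonotype of TRBV13-1 and TRBJ2-3 had one. The shares of the *Trdc* class in young and old Kit+Xcl1+ cells lay within each other's intervals. With at least 2 *Trdc* UMIs they were 30.9% (23.9 to 38.6) and 21.9% (17.3 to 27.1), and did not.

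In the comparison cells the split differed between the ages. *Trdc*-positive cells without TRB made up 40.8% of the young and 23.6% of the old comparison cells, and TRB-bearing cells without *Trdc* 39.2% and 56.0%. Read the other way, Kit+Xcl1+ cells were 5.17% (3.93 to 6.66) of young and 11.2% (9.20 to 13.4) of old *Trdc*-positive IEL without TRB, and 3.15% (2.53 to 3.87) and 3.79% (3.19 to 4.47) of all TRB-bearing IEL. After thinning the shares of *Trdc*-positive IEL were 1.85% and 3.96%. In the deposited counts the intervals of both ages were apart for *Trdc*-positive IEL and overlapped for TRB-bearing IEL. The thinned intervals of *Trdc*-positive IEL overlapped (1.13 to 2.84 in young and 2.79 to 5.44 in old), as did those with at least 2 UMIs of both genes, at 3.42% (2.42 to 4.68) and 4.93% (3.62 to 6.54).

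**Figure D4:**
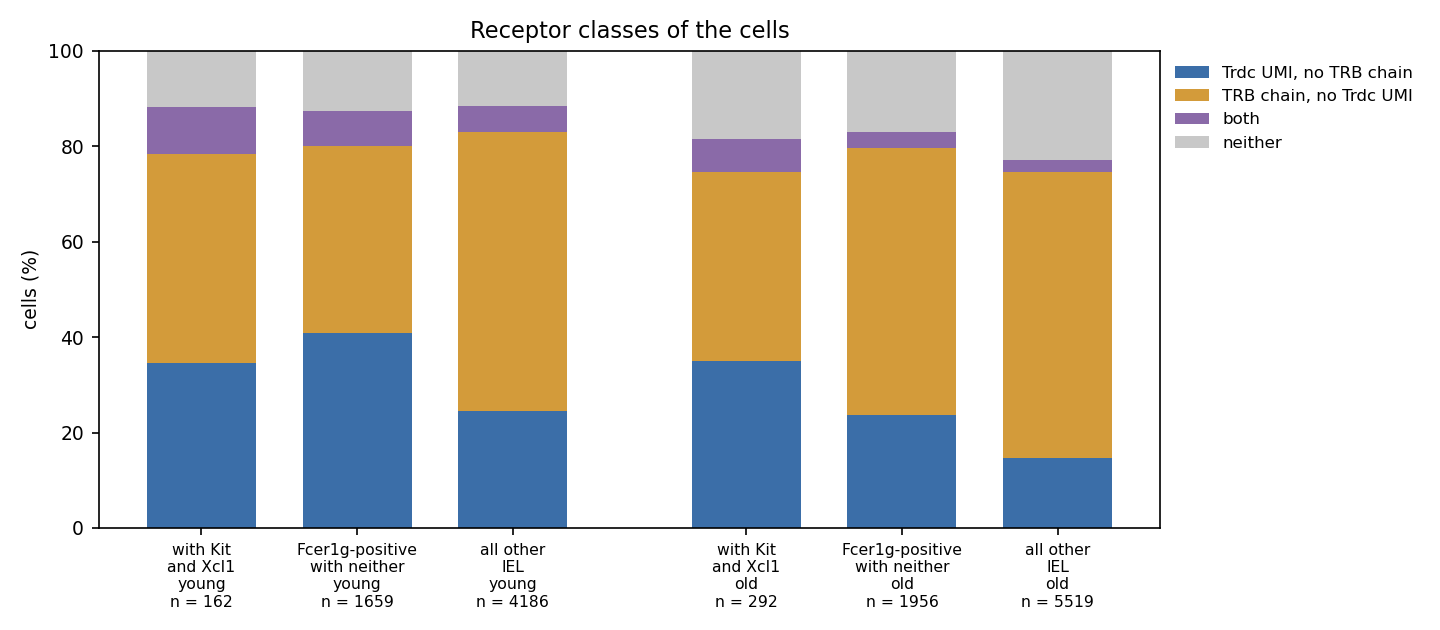
Receptor classes of Kit+Xcl1+ IEL, comparison cells and all IEL outside the Kit+Xcl1+ cells (comparison cells included) at both ages, in percent of cells (vertical axis, 0 to 100). Each bar is stacked by *Trdc* UMI without TRB chain, TRB chain without *Trdc* UMI, both and neither; the *Trdc* class is 34.6% and 34.9% of young and old Kit+Xcl1+ cells and 40.8% and 23.6% of the comparison cells.

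Cells with both receptors can be γδ cells with a rearranged TRB locus or droplets of 2 cells. A second TRB chain was found in 9 young (5.56%) and 6 old Kit+Xcl1+ IEL (2.05%), against 2.95% and 0.511% of comparison cells. The 20 old cells with both receptors had a median of 11025.5 UMIs, against 6670.5 in *Trdc*-positive and 6036.5 in TRB-bearing cells, and the 16 young ones 8388 against 7759.5 and 9583. Among the cells with the highest Scrublet doublet scores, 322 of 4348 young and 400 of 5811 old IEL, were 5 of 16 young and 6 of 20 old cells with both receptors, against 11.7% and 13.7% of all Kit+Xcl1+ cells and 9.22% and 8.84% of the comparison cells. The receptor comparison below left the cells with both receptors out.

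The γ and δ V genes were read from UMIs of the expression counts, which do not show the rearranged chain that a cell used. In *Trdc*-positive Kit+Xcl1+ cells without TRB, *Tcrg-V7*, the γ gene typical of IEL, was found in 49 of 56 young and 88 of 102 old cells and had a level of 16.1 (15.0 to 17.2) and 17.3 (16.4 to 18.3). In *Trdc*-positive comparison cells it had 14.1 and 14.2. In the TRB-bearing Kit+Xcl1+ cells it was found in 8 of 71 young and 16 of 116 old cells. *Tcrg-V1* was found in 28 of 56 young and 55 of 102 old cells. Of the δ genes, *Trdv2-2* was found in 16 and 28 cells and *Trdv5* in 11 and 20, while *Trdv1* was found in 1 of 56 and 6 of 102, against 44 of 677 and 37 of 461 comparison cells.

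Coreceptor genes mostly followed the receptor classes. *Cd8a* was found in 50 of 56 young and 94 of 102 old *Trdc*-positive cells and in 64 of 71 and 110 of 116 TRB-bearing cells. *Cd8b1*, the β chain of the classical coreceptor, was found in 0 of 56 and 0 of 102 *Trdc*-positive cells. The exact intervals for the share of cells with a detected UMI reach up to 6.38% and 3.55%. In TRB-bearing cells *Cd8b1* was found in 16 of 71 (22.5%) and 5 of 116 (4.3%). *Cd4* was found in 23 of 71 (32.4%) and 38 of 116 (32.8%) TRB-bearing cells, a share that the added CD4+ cells of the sort can set. In *Trdc*-positive cells *Cd4* was found in 4 of 56 (7.14%) and 4 of 102 (3.92%).

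*Trdc*-positive and TRB-bearing Kit+Xcl1+ IEL were alike in most genes. In young cells, 7 of 3454 genes (0.203%) were at least 2-fold higher in *Trdc*-positive cells and 27 (0.782%) lower, and in old cells 4 of 3554 (0.113%) higher and 8 (0.225%) lower, leaving out TCR genes. The young split rests on the rule: with at least 2 UMIs of both genes 20 were higher and 17 lower, and under the thinned rule 107 and 81. The median log2 ratios of all genes were 0.02 and 0.01. *Tcf7* stood at 3.18 against 2.63 in young and 2.15 against 2.44 in old cells, so that neither class led at both ages.

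Lower at both ages were *Ctla4*, the checkpoint receptor, with log2 ratios of -1.34 and -1.31, and *Thy1*, a surface protein of T cells, with -1.66 and -1.19. *Lat*, the TCR signalling adaptor, had -0.99 and -0.67 and *Klre1* -1.45 and -0.99. Of 12 genes of the costimulation and adhesion list in young cells, 4 were lower (*Cd5*, *Cd6*, *Cd8b1* and *Thy1*), and of 10 in old cells 2 (*Cd4* and *Thy1*). *Gzma* stood at 58.7 against 110 in young and 118 against 162 in old cells.

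On the high side, *Batf3*, a transcription factor, had log2 ratios of 1.08 and 0.85, *Clnk*, an adaptor of immunoreceptor signalling, 1.09 and 0.70, *Mei1* 0.93 and 0.75, and *Car2*, a carbonic anhydrase, 0.90 and 0.57. *Ctsc*, the protease that activates granzymes, had 0.73 and 0.61 and *Dapk2* 0.48 and 0.79, so that of these 6 only *Batf3* and *Clnk* passed 2-fold, in young cells. The glycolytic genes *Pgk1*, *Gapdh* and *Aldoa* and the nucleotide enzyme genes *Dut* and *Nme2* had negative ratios between -0.90 and -0.34 at both ages, and *Prag1*, *Capn3*, *Vps37b* and *Btg2* positive ones between 0.42 and 0.77. In the young cell cycle list 5 of 5 tested genes were lower, of which *Rrm2*, *Stmn1*, *Top2a* and *Tyms* turned to between 0.086 and 0.82 with 2 UMIs of both genes and to between 0.064 and 0.66 under the thinned rule. Without the 9 cycling TRB-bearing cells the summed level of the list in TRB-bearing cells went from 10.1 to 0.787, against 1.14 in *Trdc*-positive cells. *Ccl4* had a log2 ratio of 0.62 in young and -1.31 in old cells, and without 1 young *Trdc*-positive cell the young ratio turned to -0.21.

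In these sorted pools, TRB-bearing Kit+Xcl1+ IEL more often had a clonotype of their own than other IEL. The 87 young cells fell into 85 clonotypes, the largest with 2 cells, and 59 (67.8%, 56.9 to 77.4) had a clonotype with 1 cell in the pool, against 44.4% of the other TRB-bearing young IEL and 42.4% of the TRB-bearing comparison cells. The 136 old cells fell into 83 clonotypes, and 39 (28.7%, 21.3 to 37.0) had such a clonotype, against 11.6% and 8.88%. The 3 largest clonotypes of old IEL held 27.2% (19.9 to 35.5) of Kit+Xcl1+ cells against 48.5% of the other TRB-bearing IEL, whereas those of young IEL held 3.45% (0.717 to 9.75) against 2.84%. Of the TRB-bearing comparison cells they held 58.4% in old and 6.20% in young IEL. *Cd4* was found in 649 of 811, 483 of 745 and 2 of 155 cells of the 3 largest old clonotypes. It was found in 38 of 116 old Kit+Xcl1+ cells with TRB and without *Trdc*. The added CD4+ cells of the sort can therefore affect these shares, and no split by *Cd4* was made. The largest group of old Kit+Xcl1+ cells was the 31 cells of TRBV13-1 and TRBJ2-3, or 22.8% (16.0 to 30.8), and with at least 2 UMIs of both genes the largest clonotype held 10.5%.

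Kit+Xcl1+ cells shared clonotypes with IEL outside the population. Of the 85 young clonotypes, 26 also held cells without both genes, and of the 83 old ones 41. Cells with 1 TCR sequence could thus be compared with and without both genes, within 1 pool and at a median of 4889 against 5572.5 UMIs for TRBV13-1 and TRBJ2-3. Each of both clonotypes compared had 1 TRA sequence.

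In the clonotype of TRBV13-1 and TRBJ2-3, the 31 Kit+Xcl1+ cells had a *Tcf7* level of 1.26 (0.778 to 1.92) against 0.0545 in the other 714 cells, with a UMI in 10 of 31 against 15 of 714. *Gzma* stood at 217.5 (210.5 to 224.7) against 456, with a UMI in 20 of 31 against 704 of 714. *Gzmb* stood at 31.5 against 87.9, *Ccl5* at 189 against 363, *Cd160* at 9.75 against 5.23 and *Socs3* at 1.86 against 0.362. *Crtam* had 0.299 against 0.324, *Fcer1g* 34.6 against 36.9, and *Cd4* was found in 61.3% against 65.0%. The contrast in *Tcf7*, granzymes and *Cd160* was thus seen among the cells of this clonotype, at a similar *Fcer1g* level and *Cd4* share, and that in *Crtam* was not. The 31 cells held 43 *Kit* UMIs in all, so most stood at the edge of the rule with 1. For cells with at least 2 UMIs of both genes the contrast was not computed.

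The clonotype of TRBV2 and TRBJ2-3 had the same order for *Tcf7*, *Gzma*, *Gzmb*, *Cd160* and *Socs3* with fewer cells. Its 8 Kit+Xcl1+ cells had a *Tcf7* level of 2.37 (1.30 to 3.98) against 0.0194 in 72 others, with a UMI in 7 of 8 against 1 of 72. *Gzma* stood at 111 against 656, with a UMI in 2 of 8 against 72 of 72, and *Gzmb* at 7.45 against 74.0. *Cd160* stood at 12.02 against 4.23 and *Socs3* at 2.88 against 0.388. *Crtam* had 0.508 (0.105 to 1.48) against 0.194 (0.0930 to 0.357), with overlapping intervals.

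**Figure D5:**
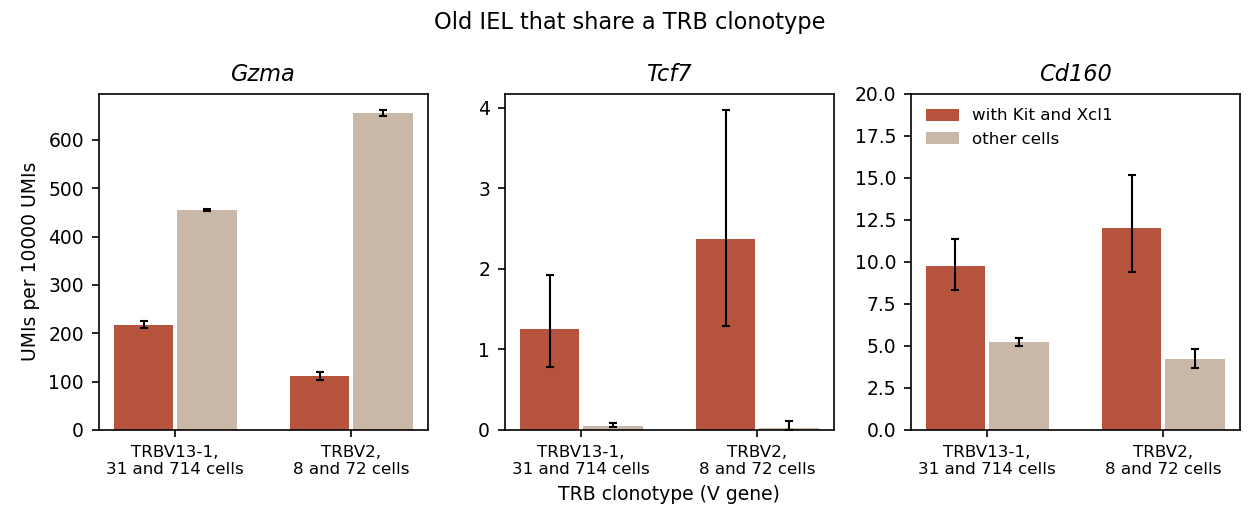
Levels of *Tcf7*, *Gzma* and *Cd160* in UMIs per 10000 UMIs (vertical axes, from 0) in old IEL of the clonotypes TRBV13-1 with TRBJ2-3 (31 Kit+Xcl1+ and 714 other cells) and TRBV2 with TRBJ2-3 (8 and 72 cells). Bars are summed levels and lines exact 95% Poisson intervals; in both clonotypes *Tcf7* and *Cd160* stand higher and *Gzma* lower in the Kit+Xcl1+ cells.

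Both clonotypes were those with at least 5 Kit+Xcl1+ cells, and smaller clonotypes did not all have this order. Of the 41 old clonotypes with cells inside and outside the population, *Tcf7* was higher in the Kit+Xcl1+ cells of 25 and lower in 2, and in 14 it was at 0 in both sets. *Gzma* was lower in 31 and higher in 10, *Ccl5* lower in 37 and higher in 4, and *Cd160* higher in 27 and lower in 14. *Socs3* was higher in 10 and lower in 18, the opposite of both clonotypes above. Of the 26 young clonotypes, *Tcf7* was higher in 16 and lower in 4, *Gzma* lower in 19 and higher in 7, and *Cd160* higher in 19 and lower in 7. An old clonotype of 2 TRB chains, given here by that of TRBV17 and TRBJ1-4, was named after its values were seen. Its 2 Kit+Xcl1+ cells stood above the others in *Gzma*, at 232 against 80.4, and in *Gzmb*, at 51.9 against 18.1. Most of these clonotypes held 1 Kit+Xcl1+ cell, so that each order rests on few UMIs.

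Mast cell markers were near 0 in Kit+Xcl1+ IEL, and markers of other cell types had summed levels of up to 1.97. The 8 mast cell markers summed to 0.0180 UMIs per 10000 in young and 0.0189 in old cells, with *Cpa3* and *Hdc* at the same level in old cells and *Fcer1a*, *Ms4a2*, *Gata2*, *Mcpt1*, *Mcpt2* and *Tpsb2* at 0 at both ages. The 4 NK and ILC1 markers summed to 0.330 and 0.241, which in old cells was all *Klrb1c*, and *Ncr1*, *Eomes* and *Klra8* were at 0. The ILC3 markers summed to 0.0660 and 0.788, of which *Il17a* took 0.746 in old cells, and the ILC2 markers to 0.138 and 0.585, the latter all *Areg*, where 1 cell held 56 of 124 UMIs. The 7 epithelial markers summed to 0.876 and 0.675, of which *Epcam*, a protein that IEL also carry, was 0.665 in old cells. The B cell markers summed to 0.420 and 0.255, with *Cd79b* highest and *Cd79a*, *Ms4a1* and *Jchain* at 0, and the 4 naive T cell markers to 0.264 and 0.109. The 5 myeloid markers summed to 0.828 and 1.97, against 1.86 and 2.23 in the comparison cells, with *Cd74* highest in old cells at 0.977 and *Lyz2* at 0, and the part of myeloid cells in the rise of *Cd74* was not tested.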

How the data were processed

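The authors counted UMIs of 10x 5′ libraries with Cell Ranger (version 7.0.1) on mm10 and deposited the counts per gene and cell for each hashtag pool as whole numbers, without normalization, with a table of productive TCR contigs. Cells were used as deposited (32248487 UMIs in young IEL, 33314700 in old IEL). No barcode was listed in more than 1 pool, and 0 columns of other samples were found. The members and gene lists were chosen with earlier results of these data known. UMIs were summed over cells, scaled to 10000 and compared as log2 ratios after adding 0.1, for genes with a mean level of at least 0.5. With 1 pool for each age no test was made, and a gene counts as apart from 2-fold. A random thinning to 2000 UMIs (seed 1) served shares of cells. Genes named were, for each comparison, up to 10 with the highest and 10 with the lowest ratio whose intervals did not overlap, ranked over both ages by the smaller ratio where a comparison was made in both, without TCR, immunoglobulin, rule and model-number genes, and the genes of 22 lists, of which 306 of 307 entries were found, 6 by a synonym. Positions are those of GENCODE for GRCm38. The germline V and J genes were read from the same genome, and a CDR3 had to share at least 6 bases with one to be marked. Scrublet (scanpy version 1.11.5) marked 0 of 4348 young and 4 of 5811 old IEL, too few to have worked, so doublets were kept, and an alternative without the 322 young and 400 old IEL of the highest scores was chosen after seeing the data, as were those with *Fcer1g*-positive Kit+Xcl1+ cells alone, without cycling cells, without the clonotype with most old Kit+Xcl1+ cells and, for *Ccl4*, without 1 young cell, and the shares by rule within receptor classes. Other alternatives changed the minimum UMIs, thinning, pseudocount, minimum level, averaging, centring, receptor class and comparison cells. The comparison was tested on simulated data. The values of 2 genes and 1 clonotype are not reported here. Python 3.11.15, numpy 2.4.6, scipy 1.17.1, pandas 2.3.3 and matplotlib 3.10.9 were used.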

Additional observations from a re-analysis of the deposited data

Results flagged for a closer look

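*Tyrobp* had log2 ratios of opposite sign, of which 0.17 and -0.26 were within 2-fold. Its log2 ratio of Kit+Xcl1+ IEL over comparison cells was -1.33 in young and 0.17 in old IEL, and its ratio of old over young cells was 1.24 in Kit+Xcl1+ IEL and -0.26 in comparison cells. The last ratio in Kit+Xcl1+ IEL was 1.38 in *Trdc*-positive and 0.82 in TRB-bearing cells. *Ccl4* had a log2 ratio of *Trdc*-positive over TRB-bearing Kit+Xcl1+ IEL of 0.62 in young and -1.31 in old cells. In young *Trdc*-positive cells 1 cell held 46.4% of its UMIs, and without that cell the young ratio was -0.21. With 1 pool for each age these differences were not tested.

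A signal outside IEL appeared in young SP, where 4 cells had UMIs of both genes against 0 of 5538 old SP cells. The intervals of these shares overlapped (0.0192 to 0.181% and 0 to 0.0666%). After thinning, 0 of 5639 young and 0 of 5501 old SP cells had both genes. These 4 cells had 15700, 9180, 8876 and 12960 UMIs, with 1, 1, 1 and 2 of *Kit*, 3, 4, 4 and 3 of *Xcl1*, 4, 3, 6 and 6 of *Tcf7*, 6, 18, 12 and 25 of *Cd160* and 0 of *Gzma*. A TRB chain was found in 2 of them, and *Trdc* UMIs in 1 of the other 2.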

How the results depend on the processing

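No paired analysis was possible because each age is 1 pool of cells and no test was made. With at least 2 UMIs of both genes the share of Kit+Xcl1+ cells was 2.25% in young and 2.17% in old IEL, which turned the ratio of old to young to 0.962, the share of old TRB-bearing cells in the largest clonotype was 10.5%, and there were 100 clonotypes for 100 cells in young and 77.2 in old IEL. Under the thinned rule the shares were 1.22% and 1.76%. With at least 2 *Trdc* UMIs, 21.9% of old Kit+Xcl1+ cells were *Trdc*-positive without TRB. Counts of genes at least 2-fold apart moved with the added value and the minimum level. A pseudocount of 0.5 gave 15 genes between old and young cells in place of 46, 27 and 8 between Kit+Xcl1+ and comparison cells (young and old) in place of 58 and 19, and 18 and 5 between receptor classes in place of 34 and 12. A minimum level of 0.2 gave 95, then 124 and 44, then 110 and 37. At least 2 UMIs gave 45 genes against old comparison cells and 40 between old receptor classes. The thinned rule gave 32 and 102 for these and 188 between young receptor classes. With TRB-bearing cells only, 75 genes were apart between old and young.

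Of 1358 recomputed log2 ratios of 136 named genes and comparisons, 1191 stayed within 0.5, 145 moved further, and 22 that were at least 2-fold apart changed sign. For Kit+Xcl1+ cells over comparison cells, the log2 ratio of *Tcf7* ranged from 2.34 to 3.81 (young) and from 2.21 to 3.93 (old), that of *Cd160* from 1.31 to 1.60 and from 1.02 to 1.33, and that of *Gzma* from -4.14 to -2.23 and from -2.24 to -1.46. Between old and young cells, *Hist1h1b* turned to 0.47 with 2 UMIs and 2.17 with thinning, *Pclaf* to 1.87, *Stmn1* to 0.18 and *Top2a* to 0.15 with thinning, and *Lgals1* to 0.60 and *Pclaf* to 0.49 in *Trdc*-positive cells. Against young comparison cells, *Stmn1* turned to -0.089 with 2 UMIs and -0.82 with thinning and *Pclaf* to -1.90 with thinning. Against old comparison cells, *Il17a* turned to -1.95 and -1.71, and with *Fcer1g*-positive Kit+Xcl1+ cells alone to -1.88, and against young ones *Cd6* turned to -0.58 with these. Between young receptor classes, with 2 UMIs and with thinning, *Rrm2* turned to 0.086 and 0.66, *Stmn1* to 0.31 and 0.064, *Top2a* to 0.82 and 0.44 and *Tyms* to 0.23 and 0.66. These rules leave fewer cells in each set, down to 53 young and 100 old cells with thinning, and to 20 and 21 in the young receptor classes. The alternative without the highest Scrublet scores left out 19 young and 40 old Kit+Xcl1+ cells.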

Other observations

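The Kit+Xcl1+ IEL in which neither a *Trdc* UMI nor a TRB chain was found, 19 young and 54 old cells, had *Tcrg-V7* UMIs in 7 and 31 cells, at levels of 3.46 (2.70 to 4.37) and 10.9 (9.87 to 11.96) UMIs per 10000. The TRB-bearing Kit+Xcl1+ cells without *Trdc* had 0.77 in young and 1.61 in old cells, and the *Trdc*-positive ones 16.1 and 17.3.

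An old clonotype of TRBJ1-1 with a V gene listed as TRBV12-2+TRBV13-2 held 27 cells. Of these, 16 had a *Trdc* UMI, 0 had a *Cd4* UMI and 2 were Kit+Xcl1+, and 0 TRA sequences were listed for the clonotype. In contrast, 17 of the 745 cells of TRBV13-1 and TRBJ2-3 had a *Trdc* UMI.

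There were 3 old clonotypes of 2 cells in which both cells were Kit+Xcl1+, with V genes TRBV19, TRBV14 and TRBV12-2, and a clonotype of TRBV1 with 2 of 3 cells. These were chosen after their values were seen.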
